A study of Lupinus albus with 12 samples.

Results

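Root tips of white lupin that had been in sucrose for 80 min were compared with root tips that had been in it for 20 min. White lupin (Lupinus albus, cultivar Amiga) is a legume that was grown in hydroponic Hoagland solution, a mineral nutrient mix. The plants were wildtype, and sucrose was added to the solution of both groups to 10 mM. Each group holds 3 plants and each library comes from 1 plant, so the contrast uses 6 of the 12 libraries of the study. The other libraries, 3 plants at 0 min without sucrose and 3 plants after 40 min of 10 mM sucrose, do not enter the difference between 80 and 20 min. They add to the test's estimate of the spread between plants, and their levels are given beside some genes as a description. The 6 libraries were chosen by their labelled time and no measured value was used. Polyadenylated RNA was sequenced from root sections that carry the tip and hold many cell types. Of 33388 genes in the table, 28980 had enough reads to be tested. The labels name sucrose as a signal as the subject of the study. They do not give the hour of harvest, and plants without added sucrose were sampled at 0 min only, so time since handling cannot be told apart from time in sucrose.

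Sucrose is the main form in which plants move carbon from leaves to roots, where it enters cells through transporters or is first cut by invertase in the wall. Inside the cell, sucrose synthase and invertase split it into hexoses that feed respiration, starch and cell walls. Plants also read it as a signal, through trehalose 6-phosphate and the kinases SnRK1 and TOR, which shift gene activity between saving carbon and growth. In root tips, where cells divide and elongate, ribosome and histone genes are among the genes active in growing cells.

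The libraries at 20 min held 71789245, 35050877 and 81816759 reads in replicates 1, 2 and 3, and those at 80 min held 85012891, 105299704 and 65512124. Within each group 1 plant stood apart from the other 2. Across genes, log2 CPM (counts scaled to a common library size) correlated at 0.914 between replicates 1 and 3 at 20 min and at 0.928 between replicates 1 and 2 at 80 min. The 20 min replicate 2 correlated at 0.815 and 0.829 with its own group, and at 0.865 with replicate 3 of the 80 min group. The 80 min replicate 3 correlated at 0.827 and 0.838 with its own group, and at 0.84 and 0.851 with replicates 1 and 3 at 20 min, while 20 min replicate 2 correlated at 0.805 and 0.811 with replicates 1 and 2 at 80 min. A difference between plants and an exchange of labels cannot be told apart from these files, so every direction given for 80 against 20 min is that of the libraries as labelled. Replicates 1 and 3 at 20 min were also the plants with the most fermentation and photosynthesis transcripts of the 6. Genes of the low-oxygen response summed to 32010, 2305 and 21550 CPM at 20 min and to 4498, 3601 and 2687 CPM at 80 min, against 9875, 9261 and 5435 CPM at 0 min. Photosynthesis genes summed to 2412, 875 and 1807 CPM at 20 min and to 957, 1078 and 903 CPM at 80 min. Their part in the results was not tested. The gene lists were matched by words in the protein names, and the genes given as examples of a list, other than the 35 named by a rule, were picked after their values were seen. The samples are whole root sections, so fewer cells of a type and less RNA per cell cannot be told apart.

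**Figure D1:**
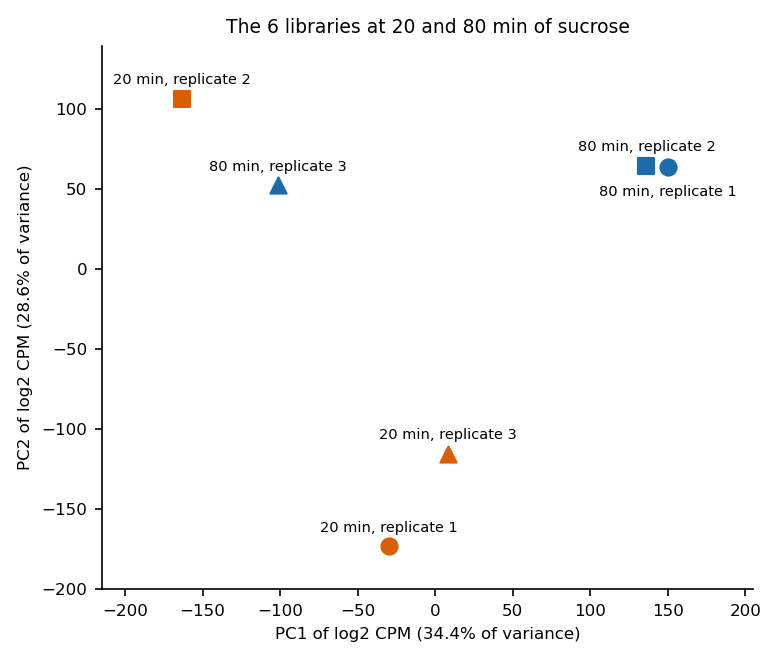
Principal components of log2 CPM over the 6 libraries at 20 min (orange) and 80 min (blue), with the share of variance on each axis and 1 symbol shape per replicate number. Replicates 1 and 2 at 80 min lie at 150.2 and 136.2 on the first axis, while 80 min replicate 3 lies at -101.2 and 20 min replicate 2 at -163.4.

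No single gene passed the test between the times. With edgeR's quasi-likelihood test and Benjamini-Hochberg adjustment over 28980 genes, 0 genes had an adjusted p below 0.05 (0%), and the smallest adjusted p was 0.104. At an unadjusted p below 0.05, 2755 genes were higher at 80 min (9.51%) and 2257 were lower (7.79%). DESeq2, run as a second count test, called 1146 of 27958 genes higher (4.1%) and 1011 lower (3.62%). In 2311 genes every plant at 80 min stood above every plant at 20 min (7.97%), and in 2276 genes every plant stood below (7.85%). Such genes are described below as separate. Without 20 min replicate 2 and 80 min replicate 3 together, edgeR called 2823 of 29445 genes higher (9.59%) and 2404 lower (8.16%), and the loss of 1 library gave 975 calls for 20 min replicate 2, 3541 for 80 min replicate 3 and 0 to 5 for each of the others. Those 2 libraries were chosen because they stood apart in these data, and leaving them out narrows the spread within the groups by construction, so the calls without them are a description of the other 4 plants and no independent support. Shares of a gene list without both libraries are over its members tested in that fit. The median over all 28980 log2 fold changes was -0.02, with 14259 genes above 0.

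For most separate genes the mean of the 40 min plants lay in between. The mean at 40 min was between the means at 20 and 80 min in 1731 of the 2311 genes separate and higher (74.9%) and in 1555 of the 2276 separate and lower (68.3%), beside 43.6% of all genes tested. The mean at 0 min was between them in 72.5% and 62.3%, beside 39.4% of all genes. Genes chosen for a wide gap leave more room between the means, so these shares are a description of the order and no test. The mean at 0 min was above both in 363 of the higher genes and below both in 482 of the lower ones.

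The 10 named genes with the smallest p among those separate and higher at 80 min were 2.03 to 7.16 times as high in mean CPM. They had log2 fold changes of 1.02 to 2.83 and an edgeR adjusted p of 0.130 each, with DESeq2 adjusted p from 9.88e-07 to 3.27e-05. Without 20 min replicate 2 and 80 min replicate 3, the largest edgeR adjusted p over these and the 10 lower genes described further on was 0.0203. A lipoxygenase (Lalb_Chr24g0396541), of the enzymes that add oxygen to fatty acids at the start of jasmonate synthesis, stood at 2.51, 4.16 and 4.85 CPM at 20 min and at 27.1, 11.5 and 28.4 CPM at 80 min (log2 fold change 2.54, SE 0.41). Its levels at 0 min were 33.2, 20.9 and 37.6 CPM, so the 20 min plants were the low ones and 80 min overlapped 0 min. Its direct neighbour in NCBI's annotation of CNRS_Lalb_1.0, a linoleate 9S-lipoxygenase (Lalb_Chr24g0396551), showed 0.0302, 3.26 and 0.56 CPM and 6.33, 7.11 and 11.8 CPM (log2 fold change 2.73, edgeR adjusted p = 0.245).

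A major intrinsic protein (Lalb_Chr25g0278951), of the aquaporin family of water channels, stood at 7.63, 8.96 and 5.47 CPM at 20 min and 29.8, 38.6 and 25.3 CPM at 80 min. The plants at 0 min, at 20.6, 27.7 and 30.6 CPM, were above every plant at 20 min, as all plants at 80 min were. An EF-hand protein (Lalb_Chr18g0048311), of a family that binds calcium, had 0.438, 0.557 and 0.86 CPM at 20 min and 4.36, 5.45 and 3.47 CPM at 80 min (log2 fold change 2.83, SE 0.51). A gibberellin regulated protein (Lalb_Chr12g0201421), a small cysteine-rich peptide of the GASA type, had 16.9, 62.7 and 44.3 CPM at 20 min and 216, 229 and 173 CPM at 80 min (log2 fold change 2.32, SE 0.42). It was at 109, 119.7 and 151 CPM at 0 min, below every plant at 80 min and above every plant at 20 min.

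Genes of wall growth and of DNA replication were in the same set. An expansin (Lalb_Chr19g0135311), which loosens cell walls, stood at 3.23, 4.99 and 4.6 CPM at 20 min and 16.4, 12.3 and 11.7 CPM at 80 min. A PMR5 and PC-esterase protein (Lalb_Chr03g0029871), of a family that acetylates wall polysaccharides, was almost the same in the 3 plants at 20 min, with 42.8, 40.5 and 43.1 CPM, and had 107, 123 and 99.6 CPM at 80 min. Replication factor A (Lalb_Chr21g0309181), which binds single-stranded DNA, had 14.3, 19 and 19.4 CPM and 45.5, 46.9 and 32.8 CPM, and 80 min replicate 3 was the lowest of its group. A C2H2 zinc finger factor (Lalb_Chr01g0003701) had 18.9, 26 and 20.6 CPM and 51.2, 43.6 and 41.3 CPM, with the 0 and 40 min plants between. A BTB-POZ-MATH regulator (Lalb_Chr18g0053041) and the import subunit TOM7 of the mitochondrial outer membrane (Lalb_Chr16g0390871) were low at 20 min alone. The former had 7.42, 11.1 and 8.05 CPM at 20 min and 18.8 to 25.3 CPM in the other 9 libraries, and the latter had 36.1, 38.4 and 40.8 CPM at 20 min and 63.5 to 94.1 CPM in the others.

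The 10 named genes with the smallest p among those separate and lower at 80 min had log2 fold changes from -1.96 to -6.06, with edgeR adjusted p of 0.104 to 0.130 and DESeq2 adjusted p from 7.72e-19 to 1.05e-07. The smallest p of all belonged to an ent-kaurene synthase (Lalb_Chr13g0296671), which makes the hydrocarbon from which gibberellins are built. It had 5.15, 10.1 and 6.5 CPM at 20 min, 1.23, 1.97 and 0.924 CPM at 40 min and 0.137, 0.267 and 0.336 CPM at 80 min (log2 fold change -4.87 with an SE of 0.55, adjusted p = 0.104 by edgeR). The plants at 0 min, at 5.36, 5.27 and 3.01 CPM, overlapped those at 20 min. A catechol O-methyltransferase (Lalb_Chr19g0135061) was high at 20 min alone, with 12.8, 31.8 and 23.2 CPM at 20 min, 0.103, 0.20 and 0.714 CPM at 80 min and no more than 1.44 CPM in any plant at 0 or 40 min. Its log2 fold change was -6.06 with an SE of 0.81 and an adjusted p of 0.13 by edgeR.

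Other genes were low at 80 min alone. A CSD factor (Lalb_Chr19g0139191), named for the cold shock domain that binds nucleic acids, had 54.5, 39.5 and 38 CPM at 20 min, 104, 67.8 and 130.0 CPM at 40 min and 1.46, 0.143 and 1.08 CPM at 80 min (log2 fold change -5.62 with an SE of 0.71, adjusted p = 0.113 by edgeR). A 1-aminocyclopropane-1-carboxylate (ACC) synthase (Lalb_Chr05g0224501), which makes the precursor of ethylene, had 26.4, 28.5 and 20.5 CPM at 20 min and 5.41, 4.98 and 7.48 CPM at 80 min (log2 fold change -2.08, SE 0.30), while all plants at 0 and 40 min were at 20.5 CPM or above. A peroxidase (Lalb_Chr18g0052481) had 70.1, 77.2 and 61.9 CPM and 17.5, 16.4 and 19.9 CPM (log2 fold change -1.96), and a cellulose synthase (Lalb_Chr20g0114291), which spins wall cellulose, had 23.2, 40 and 23.3 CPM and 4.79, 4.18 and 5.92 CPM (log2 fold change -2.54). In these 4 genes the plants at 80 min lay below all 9 other libraries.

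The remaining genes of the set had their highest group mean at 20 min and their lowest at 80 min. They were a hydrolase (Lalb_Chr15g0087121; 84.6, 37.7 and 98.8 CPM at 20 min and 2.91, 4.59 and 7.69 CPM at 80 min), an exostosin (Lalb_Chr08g0230501; 12.6, 9.81 and 11.5 CPM and 1.49, 1.93 and 2.62 CPM), of a family of glycosyltransferases, and a PHD chromatin regulator (Lalb_Chr17g0339851; 6.12, 1.62 and 5.17 CPM and 0.206, 0.152 and 0.336 CPM). A syringolide-induced protein (Lalb_Chr19g0131611) had 54.3, 27.3 and 49 CPM and 4.98, 7.45 and 12 CPM. In all 4 genes replicate 2 was the lowest plant at 20 min.

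**Figure D2:**
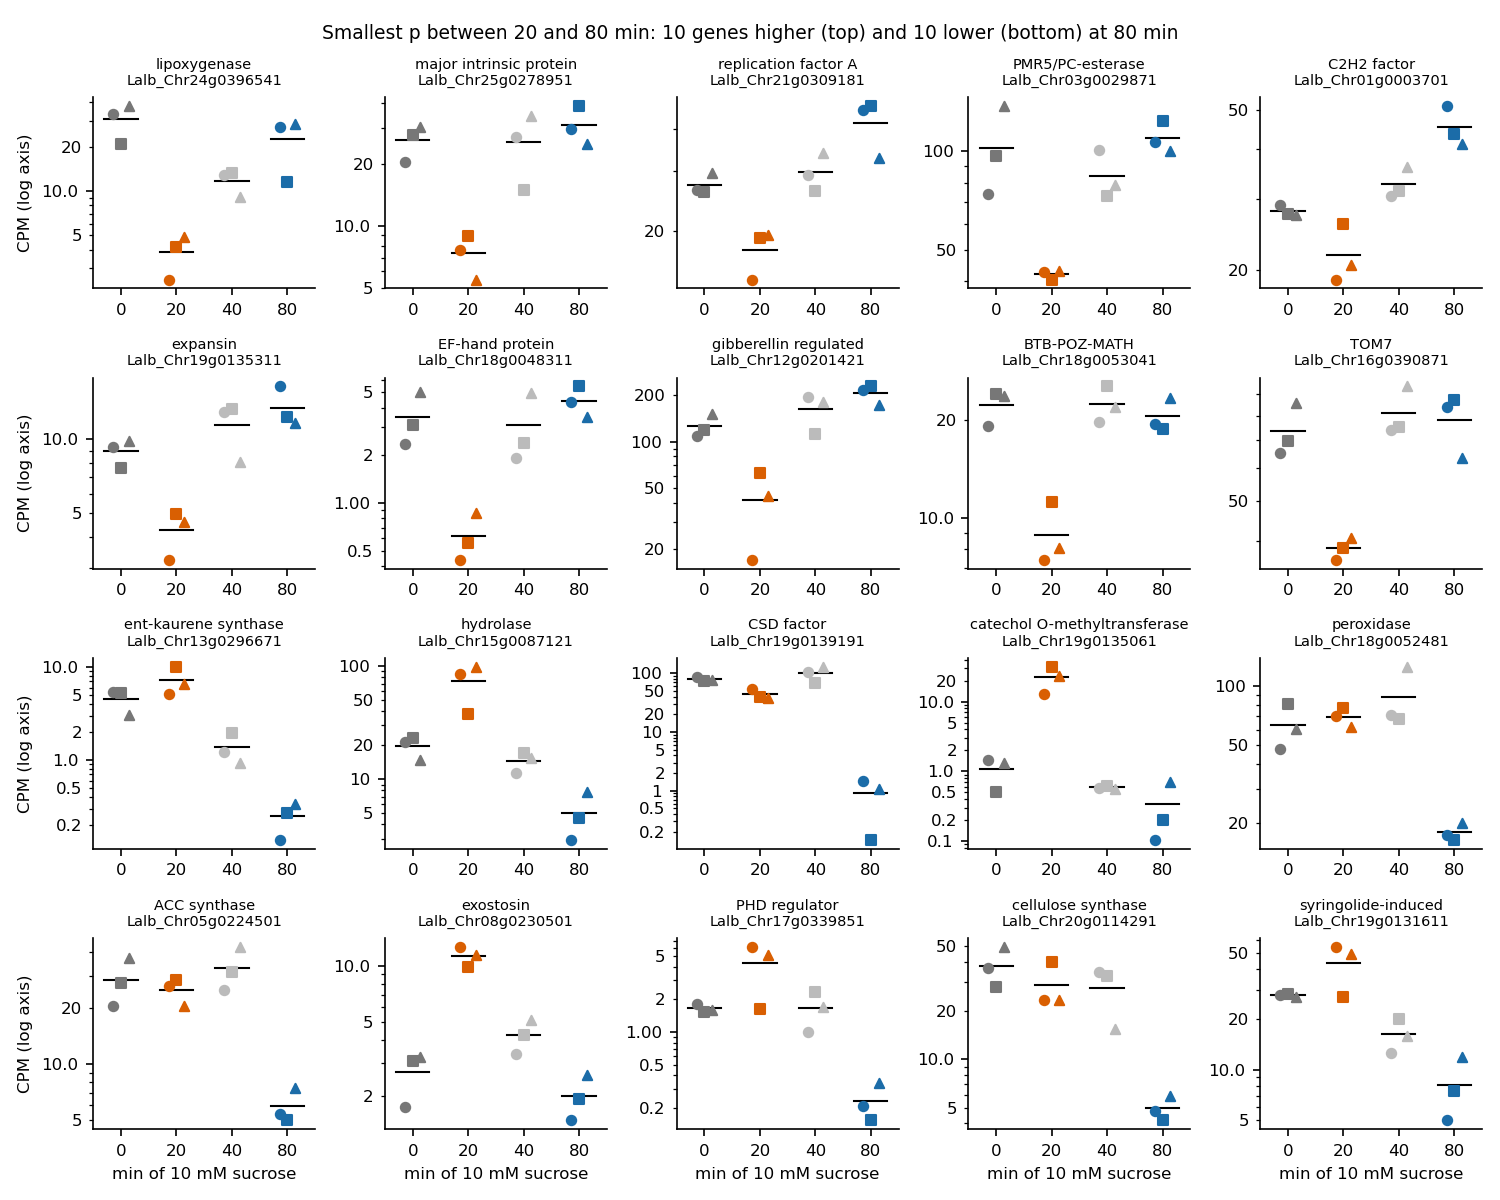
CPM (log axis) against minutes in 10 mM sucrose for the 20 named genes with the smallest p, each point 1 plant (circle, square and triangle for replicates 1, 2 and 3) and each bar a group mean. In the top 2 rows the 3 blue points at 80 min lie above the 3 orange points at 20 min, as in the lipoxygenase at 11.5 to 28.4 against 2.51 to 4.85 CPM, and in the bottom 2 rows below them.

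Genes that split sucrose differed in direction. Of 42 tested genes for sucrose synthases, invertases, fructokinases and hexokinases, 4 were separate and higher and 1 was separate and lower (9.52% and 2.38%, beside 7.97% and 7.85% of all genes), and the median log2 fold change was 0.07. Without 20 min replicate 2 and 80 min replicate 3, edgeR called 7 higher (16.3%) and 2 lower (4.65%), beside 9.59% and 8.16% of all genes. The separate and lower gene was the sucrose synthase Lalb_Chr11g0073991, at 1538, 772 and 1491 CPM at 20 min and 209, 235 and 114 CPM at 80 min (log2 fold change -2.77 with an SE of 0.48, adjusted p = 0.13 by edgeR; DESeq2 adjusted p = 2.02e-06). It stood at 993, 1092 and 716 CPM at 0 min and 182, 573 and 450.2 CPM at 40 min, so it was lower at 80 min than in every plant at 0 and 20 min. A second sucrose synthase (Lalb_Chr07g0181391) varied widely between plants of each group, with 1882, 186 and 261 CPM at 20 min, 577, 94.7 and 77 CPM at 80 min and 1127, 555 and 27.2 CPM at 0 min (log2 fold change -1.64 with an SE of 1.31, adjusted p = 0.561 by edgeR). Its groups overlapped, and without 20 min replicate 1 its log2 fold change was 0.16.

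Fructokinases, which phosphorylate the fructose that sucrose synthase releases, gave different values. The member of the list with the highest mean FPKM (a level that allows for gene length and depth), Lalb_Chr22g0352101, overlapped between 1976, 481 and 1931 CPM and 1053, 992 and 569 CPM (log2 fold change -0.75, edgeR adjusted p = 0.447). Other members were separate and higher at 80 min. Lalb_Chr03g0026071 had 28.5, 30.7 and 40.8 CPM at 20 min and 82.9, 74.3 and 56.3 CPM at 80 min (log2 fold change 1.09, edgeR adjusted p = 0.138), and Lalb_Chr10g0104451 had 30.6, 46.1 and 31.2 CPM and 66.9, 71.7 and 47.3 CPM (log2 fold change 0.79, edgeR adjusted p = 0.168). A beta-fructofuranosidase, or invertase (Lalb_Chr05g0225561), stood at 0.348, 1.43 and 2.45 CPM at 20 min and at 169.6, 197 and 1.01 CPM at 80 min (log2 fold change 6.44 with an SE of 1.85, adjusted p = 0.173 by edgeR). Its groups overlapped, since 80 min replicate 3 was as low as the 20 min plants.

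Sugar transporters were spread in both directions. Of 84 tested there were 11 separate and higher (13.1%) and 10 separate and lower (11.9%), beside 7.97% and 7.85% of all genes. The median log2 fold change of 0.12 was -0.024 to 0.25 when 1 library was left out, with a change of sign for 20 min replicate 1 and for 80 min replicate 3. By mean FPKM the leading members were a sugar transporter (Lalb_Chr09g0327281) with 185, 356 and 203 CPM at 20 min and 239, 244 and 334 CPM at 80 min, and a SWEET gene (Lalb_Chr08g0240571) with 83.4, 211 and 132 CPM and 51.9, 73.3 and 311 CPM. SWEET proteins let sugars pass in either direction. Their log2 fold changes of 0.13 and 0.03 changed sign when single libraries were left out. The third, Lalb_Chr05g0210921, was separate and lower, at 191, 145 and 219 CPM and 87.8, 99 and 127 CPM (log2 fold change -0.82, edgeR adjusted p = 0.239).

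Other transporters lay at opposite ends of the list. Lalb_Chr01g0020261 had 0, 0.424 and 0.208 CPM at 20 min and 4.0, 8.05 and 4.82 CPM at 80 min (log2 fold change 4.76 with an SE of 1.16, adjusted p = 0.156 by edgeR). Lalb_Chr01g0006231 had 37.3, 4.14 and 46.6 CPM and 1.79, 1.3 and 3.08 CPM (log2 fold change -3.84 with an SE of 0.76, adjusted p = 0.132 by edgeR), and replicate 2 at 20 min was below the plants at 0 min, which had 6.45, 8.61 and 6.68 CPM. Among SWEET genes, Lalb_Chr12g0202361 was separate and higher, at 13.6, 42.5 and 23.3 CPM and 49.4, 52.2 and 84 CPM. Lalb_Chr04g0257541 was separate and lower, at 6.36, 0.849 and 3.2 CPM and 0.481, 0.609 and 0.084 CPM.

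**Figure D3:**
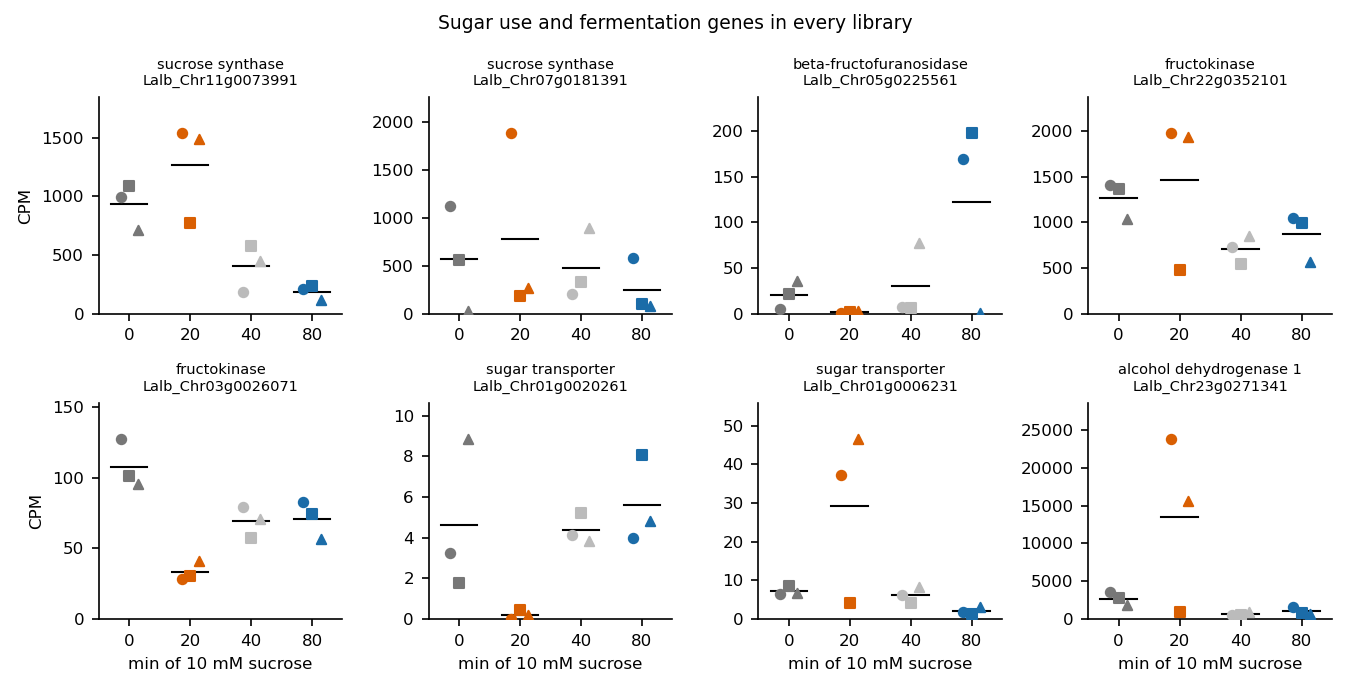
CPM (linear axis from 0) against minutes in 10 mM sucrose for 8 genes of sugar use and fermentation, each point 1 plant (circle, square and triangle for replicates 1, 2 and 3) and each bar a group mean. Sucrose synthase Lalb_Chr11g0073991 lies at 772 to 1538 CPM at 20 min and at 114 to 235 CPM at 80 min, while alcohol dehydrogenase 1 is high in 2 of 3 plants at 20 min.

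Trehalose 6-phosphate genes and sugar-sensing kinases are short lists, in which a share rests on 1 or 2 genes. Of 29 trehalose genes there were 1 separate and higher (3.45%) and 1 separate and lower (3.45%), beside 7.97% and 7.85% of all genes (median log2 fold change -0.04, -0.079 to 0.12 without 1 library). A trehalose phosphate synthase (Lalb_Chr05g0222101) had 95.6, 148 and 152 CPM at 20 min and 118, 118 and 148 CPM at 80 min (log2 fold change -0.04, SE 0.32). Among the phosphatases that remove trehalose 6-phosphate, Lalb_Chr08g0241961 had 198, 34.6 and 149.5 CPM and 66.8, 53.4 and 39.2 CPM, and Lalb_Chr12g0203741 had 112, 16.3 and 67.4 CPM and 78.8, 64.9 and 39.4 CPM. In both, 20 min replicate 2 was the lowest of the 6 plants and the groups overlapped. Genes of SnRK1 and TOR signalling had 0 separate members of 29 in either direction (0%; median log2 fold change -0.26, -0.51 to 0.062 without 1 library), edgeR and DESeq2 each called 0, and the unadjusted p was below 0.05 in 1. With both libraries that stood apart left out, edgeR called 3 higher (10%) and 0 lower (0%) of the trehalose genes and 3 higher (10.3%) and 2 lower (6.9%) of the SnRK1 and TOR genes, beside 9.59% and 8.16% of all genes.

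Of 34 sugar starvation markers, genes known to be active when carbon is short, there were 3 separate and higher (8.82%) and 5 separate and lower (14.7%), beside 7.97% and 7.85% of all genes. Their summed level was 1722, 2046 and 1810 CPM at 20 min and 1138, 1047 and 4028 CPM at 80 min, so 80 min replicate 3 stood far above the other 2 plants of its group. The median log2 fold change was 0.08, with -0.50 to 0.18 when 1 library was left out and -0.72 without both libraries, and the lowest of the former was that without 80 min replicate 3. Without both, edgeR called 2 higher (5.71%) and 4 lower (11.4%), beside 9.59% and 8.16% of all genes.

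Starch and glycolysis genes had shares of separate members on both sides of the background. Starch metabolism had 6 of 55 genes separate and higher and 2 separate and lower (10.9% and 3.64%, beside 7.97% and 7.85% of all genes; median log2 fold change 0.12). A beta-amylase (Lalb_Chr20g0118131), which cuts maltose from starch, had 34.1, 36.6 and 67.6 CPM at 20 min and 91.4, 107 and 46.2 CPM at 80 min, against 459, 411 and 237 CPM at 0 min (log2 fold change between 80 and 20 min 0.82, edgeR adjusted p = 0.304). An alpha-amylase (Lalb_Chr14g0368691) had 143, 2.04 and 87.1 CPM at 20 min and 9.57, 6.45 and 0 CPM at 80 min. Both amylases overlapped between the times. A 4-alpha-glucanotransferase (Lalb_Chr08g0238881), which rearranges maltose chains, had 55.1, 66.6 and 47.2 CPM and 53.9, 58 and 74.1 CPM. Glycolysis enzymes had 3 of 89 separate and higher and 6 separate and lower (3.37% and 6.74%), and their summed level was 25990, 11580 and 25230 CPM at 20 min and 15950, 17010 and 9493 CPM at 80 min.

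Low-oxygen genes had a median log2 fold change of -0.42 over 30 members, with 2 separate and higher and 2 separate and lower (6.67% and 6.67%, beside 7.97% and 7.85% of all genes). Of the 30, 21 were below 0, and DESeq2 called 1 higher and 3 lower, beside 4.1% and 3.62% of all genes. Without 20 min replicate 2 and 80 min replicate 3, edgeR called 2 higher (6.67%) and 8 lower (26.7%), beside 9.59% and 8.16% of all genes. Alcohol dehydrogenase 1 (Lalb_Chr23g0271341), the last enzyme of ethanol fermentation, was at 23823, 902 and 15682 CPM at 20 min and 1601, 810.1 and 721 CPM at 80 min (log2 fold change -3.69 with an SE of 0.94, adjusted p = 0.158 by edgeR; DESeq2 adjusted p = 0.000531). Pyruvate decarboxylase (Lalb_Chr01g0023181), the step before it, was at 3513, 309 and 2526 CPM and 703, 679 and 633 CPM, and a hypoxia induced protein (Lalb_Chr08g0231331) at 1496, 2.55 and 752 CPM and 214, 208 and 55.2 CPM. In these 3 genes replicates 1 and 3 at 20 min were above every plant at 80 min. Replicate 2 at 20 min lay within the range at 80 min for alcohol dehydrogenase 1 and below it for the other 2 genes.

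Most histone, ribosomal and cell cycle genes had higher values at 80 min. Histones had 49 of 55 tested genes above 0 and a median log2 fold change of 0.82. 25 of them were separate and higher (45.5%, beside 7.97% of all genes) and 0 separate and lower. DESeq2 called 13 higher and 0 lower, beside 4.1% and 3.62% of all genes. Without 20 min replicate 2 and 80 min replicate 3, edgeR called 32 higher (58.2%) and 0 lower (0%), beside 9.59% and 8.16% of all genes. Their summed level was 2614, 3031 and 3252 CPM at 20 min and 5239, 5620 and 3907 CPM at 80 min, against 4235, 4009 and 3409 CPM at 0 min and 5544, 3838 and 4599 CPM at 40 min. The groups at 20 and 80 min did not overlap, and the plants at 0 min were above those at 20 min. A histone H4 gene (Lalb_Chr12g0199401) showed 24.8, 49 and 41.9 CPM and 139, 124 and 79.8 CPM (log2 fold change 1.57 with an SE of 0.31, adjusted p = 0.13 by edgeR). Histone genes are near-identical copies, and how reads that match several of them were counted is not given in the sources used here.

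Ribosomal proteins had 432 of 523 members above 0, with a median log2 fold change of 0.67. Of the 523, 65 were separate and higher (12.4%) and 14 separate and lower (2.68%), beside 7.97% and 7.85% of all genes. DESeq2 called 70 higher and 1 lower, beside 4.1% and 3.62% of all genes. Without the same 2 libraries edgeR called 169 higher (31.9%) and 3 lower (0.567%). Their sums of 38610, 29210 and 47670 CPM at 20 min and 80880, 79720 and 35990 CPM at 80 min overlapped, since 80 min replicate 3 was below 2 of the 20 min plants. The 40S protein S30 gene (Lalb_Chr09g0330091) was separate in all 3 plants, at 48.3, 38.4 and 66.4 CPM and 198, 207 and 92.2 CPM (log2 fold change 1.70, edgeR adjusted p = 0.13). Ribosome assembly genes had 47 of 62 above 0 (median 0.39) and translation factors 92 of 126 (median 0.26), with 4 and 4 members separate and higher, shares of 6.45% and 3.17% that are below the background of 7.97%. Without both libraries edgeR called 14 higher (22.2%) and 0 lower (0%) of the former and 22 higher (17.5%) and 8 lower (6.35%) of the latter, beside 9.59% and 8.16% of all genes.

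Cell cycle and replication genes had 164 of 236 above 0 and a median log2 fold change of 0.35. There were 25 separate and higher (10.6%) and 12 separate and lower (5.08%), beside 7.97% and 7.85% of all genes. Their summed level was 4118, 4895 and 4453 CPM at 20 min and 6717, 6120 and 4349 CPM at 80 min, which overlap, since 80 min replicate 3 was below 2 of the 20 min plants. Without the same 2 libraries edgeR called 65 higher (27.3%) and 5 lower (2.1%), beside 9.59% and 8.16% of all genes. The clamp protein PCNA (Lalb_Chr15g0082601), which holds DNA polymerase on its template, stood at 7.53, 16.8 and 16.3 CPM at 20 min and 42.8, 45 and 22.8 CPM at 80 min (log2 fold change 1.44, edgeR adjusted p = 0.158). A cyclin-dependent kinase regulatory subunit (Lalb_Chr01g0004631) showed 24.6, 34.4 and 30.8 CPM and 60, 60 and 63.9 CPM, with the 3 plants at 80 min close together. The SLD5 subunit of the GINS complex (Lalb_Chr20g0110431), a part of the replication helicase, had 3.42, 6.6 and 3.54 CPM and 11.1, 12 and 9.69 CPM.

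Heat shock proteins, chaperones that fold new or damaged proteins, had 66 of 85 members above 0 (median log2 fold change 0.41), with 4 separate and higher (4.71%) and 3 separate and lower (3.53%), beside 7.97% and 7.85% of all genes. Their summed level was 7671, 7075 and 8526 CPM at 20 min and 12920, 12620 and 5473 CPM at 80 min, so 80 min replicate 3 was the lowest of the 6. Heat stress factors (median -0.20, 33 genes) had 1 separate and higher (3.03%) and 0 separate and lower (0%). DnaJ co-chaperones (median -0.0055, 163 genes) had 8 separate and higher (4.91%) and 17 separate and lower (10.4%). Without both libraries edgeR called 19 higher (22.1%) and 2 lower (2.33%) of the heat shock proteins, beside 9.59% and 8.16% of all genes.

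**Figure D4:**
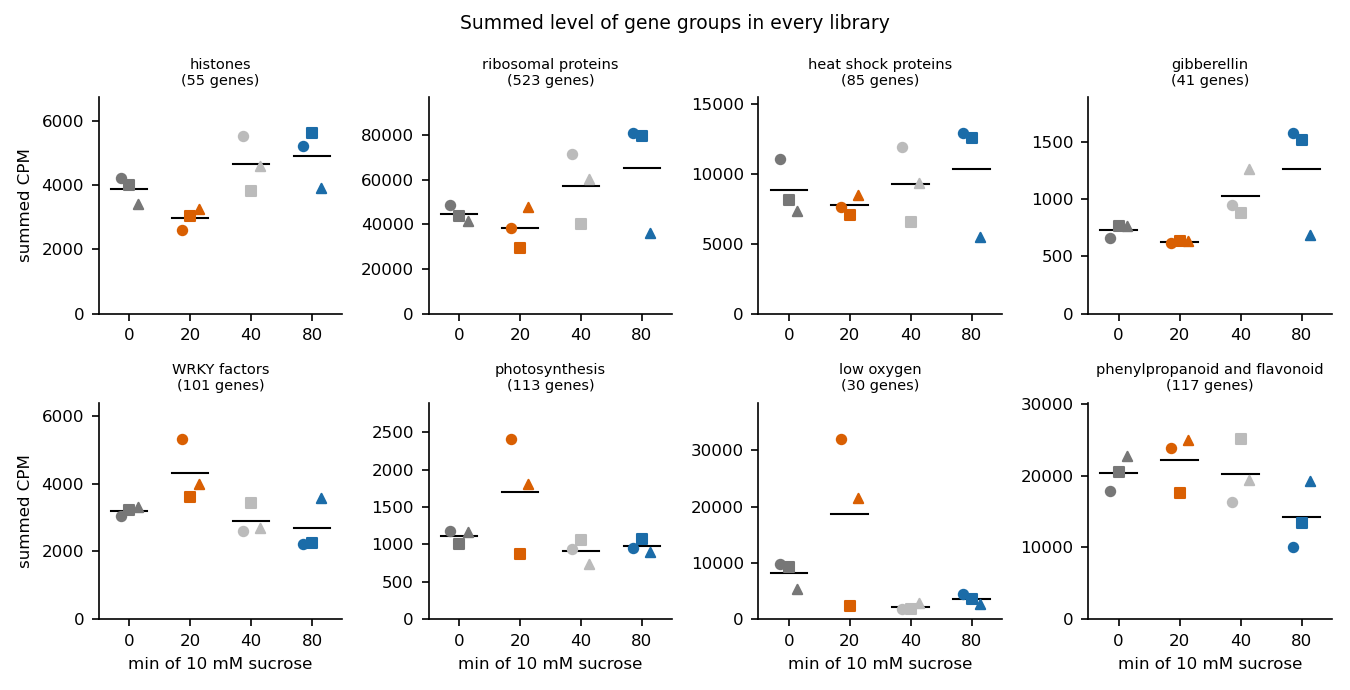
Summed CPM (linear axis from 0) of 8 gene groups against minutes in 10 mM sucrose, each point 1 plant (circle, square and triangle for replicates 1, 2 and 3) and each bar a group mean. Histone sums lie at 2614 to 3252 CPM at 20 min and 3907 to 5620 CPM at 80 min without overlap, while in the ribosomal, heat shock and gibberellin panels 80 min replicate 3 lies far below the other 2 plants at 80 min.

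Aquaporins had 29 of 39 members above 0 (median log2 fold change 0.53), 11 separate and higher (28.2%, beside 7.97% of all genes) and 0 separate and lower. DESeq2 called 7 higher and 0 lower, beside 4.1% and 3.62% of all genes. Without 20 min replicate 2 and 80 min replicate 3, edgeR called 10 higher (25.6%) and 4 lower (10.3%), beside 9.59% and 8.16% of all genes. Lalb_Chr25g0289111 had 5.86, 7.53 and 5.82 CPM at 20 min and 47.5, 73.1 and 18.8 CPM at 80 min (log2 fold change 2.86 with an SE of 0.54, adjusted p = 0.13 by edgeR). Lalb_Chr25g0288891, on the same chromosome with 19 protein-coding genes between them, had 66.6, 54.8 and 71.9 CPM and 201, 322 and 121 CPM, and Lalb_Chr05g0214391 had 4.96, 115 and 20.9 CPM and 188, 385 and 560.5 CPM. In all 3 genes every plant at 0 min was above every plant at 20 min. The sum over the list was 9617, 11230 and 8958 CPM at 20 min and 9790, 14440 and 14350 CPM at 80 min, which overlap, and 14340, 17510 and 19360 CPM at 0 min.

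Genes of sulfate and iron had 8 separate and higher (15.7%) and 8 separate and lower (15.7%) of 51, beside 7.97% and 7.85% of all genes, and a median log2 fold change of 0.07, so the list as a whole leaned neither way. The iron genes given here are examples of it, and none passed edgeR's test. A ferritin (Lalb_Chr03g0043401), of the proteins that store iron in plastids, had 2.34, 4.51 and 3.39 CPM at 20 min and 40.6, 45.2 and 5.49 CPM at 80 min (log2 fold change 3.16 with an SE of 0.68, adjusted p = 0.141 by edgeR). Ferritin Lalb_Chr13g0291401 had 0 reads in all 3 plants at 20 min and 1.02, 2.64 and 0.602 CPM at 80 min, at least 26-fold higher at a floor of 3 reads per library. Ferritin Lalb_Chr10g0105281 overlapped, with 17.1, 40.8 and 28.1 CPM and 146, 143 and 29.8 CPM, and in all 3 ferritins 80 min replicate 3 was the lowest plant of its group. A vacuolar iron transporter (Lalb_Chr05g0222091), which moves iron into the vacuole, had 9.26, 6.36 and 8.69 CPM and 19.5, 16.7 and 25.5 CPM, and there 80 min replicate 3 was the highest.

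Nitrogen genes had 1 separate and higher (3.12%) and 5 separate and lower (15.6%) of 32, beside 7.97% and 7.85% of all genes. The median log2 fold change of -0.06 was -0.32 to 0.76 when 1 library was left out and 0.88 without both, where edgeR called 8 higher (24.2%) and 4 lower (12.1%), beside 9.59% and 8.16% of all genes. An ammonium transporter (Lalb_Chr07g0184111), which takes up ammonium, was lower at 80 min, at 60.1, 66 and 52.9 CPM at 20 min and 27.8, 21.3 and 22.5 CPM at 80 min (log2 fold change -1.32 with an SE of 0.21, adjusted p = 0.13 by edgeR). Glutamine synthetase (Lalb_Chr17g0346051), which binds ammonium to glutamate, had 69.5, 71.2 and 42.4 CPM and 5.65, 3.58 and 12.7 CPM (log2 fold change -3.06, edgeR adjusted p = 0.161). Phosphate genes had 6 separate and higher and 8 separate and lower of 64 (9.38% and 12.5%), with a median of -0.07. Carboxylate genes had 3 and 2 of 64 (4.69% and 3.12%), with a median of 0.19. White lupin is known for releasing citrate and malate from its roots to free phosphate.

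Among ethylene synthesis genes other than the ACC synthase, the ACC oxidase Lalb_Chr05g0221121, which carries out the last step, had 159.6, 105 and 76.1 CPM at 20 min and 10.6, 18.5 and 14.6 CPM at 80 min (log2 fold change -2.96 with an SE of 0.64, adjusted p = 0.141 by edgeR). Another, Lalb_Chr18g0056831, had 395, 171 and 336 CPM and 39.5, 78 and 80.3 CPM (log2 fold change -2.19, edgeR adjusted p = 0.145). The list held 35 tested synthesis enzymes and response proteins. Of these, 5 were separate and lower (14.3%) and 2 separate and higher (5.71%), beside 7.85% and 7.97% of all genes. The median was -0.27 (-1.03 to -0.066 without 1 library, the lowest without 80 min replicate 3). Without both libraries edgeR called 3 higher (8.57%) and 5 lower (14.3%), beside 9.59% and 8.16% of all genes. A cytokinin dehydrogenase (Lalb_Chr07g0180871), which breaks cytokinin down, had 41.9, 47.7 and 56.1 CPM at 20 min and 5.32, 2.63 and 12.9 CPM at 80 min (log2 fold change -2.81 with an SE of 0.48, adjusted p = 0.13 by edgeR). Of 66 cytokinin genes 1 was separate and higher (1.52%) and 3 were separate and lower (4.55%), beside 7.97% and 7.85% of all genes.

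Gibberellin genes went in both directions. Of 41, 27 were above 0 (median log2 fold change 0.54), 8 were separate and higher (19.5%) and 3 separate and lower (7.32%), and without the same 2 libraries edgeR called 12 higher (28.6%) and 3 lower (7.14%). The background is 7.97% and 7.85% for the former shares and 9.59% and 8.16% for the latter. The summed level of 619, 635 and 634 CPM at 20 min was tight, and that of 1577, 1516 and 691 CPM at 80 min was close to it in replicate 3 only. Among the gibberellin regulated peptides, Lalb_Chr13g0297951 had 8.39, 10.6 and 7.63 CPM and 41.7, 59.6 and 26.9 CPM, and Lalb_Chr06g0176431 had 1.04, 0.955 and 1.58 CPM and 17.8, 12.8 and 1.65 CPM. Opposite to them, Lalb_Chr10g0104391 had 165, 131 and 112 CPM and 10.5, 12.1 and 48.1 CPM. Lalb_Chr23g0267381 had 9.96, 0.318 and 4.82 CPM at 20 min and 0 reads in all 3 plants at 80 min, at least 144-fold lower in mean CPM at a floor of 3 reads per library.

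Gibberellin 2-beta-dioxygenases, which inactivate the hormone, also differed among themselves. Lalb_Chr25g0285421 had 11.9, 2.92 and 6.06 CPM at 20 min and 0.114, 0.248 and 0.266 CPM at 80 min (log2 fold change -5.04 with an SE of 0.80, adjusted p = 0.13 by edgeR). Lalb_Chr06g0167031 had 0.332, 0.186 and 0.261 CPM and 2.43, 1.29 and 0.826 CPM (log2 fold change 2.53 with an SE of 0.60, adjusted p = 0.149 by edgeR). Jasmonate genes had 9 separate and higher (15.8%) and 2 separate and lower (3.51%) of 57, beside 7.97% and 7.85% of all genes. Without both libraries edgeR called 5 higher (8.62%) and 5 lower (8.62%), beside 9.59% and 8.16% of all genes. The median log2 fold change, 0.31 over the 6 libraries, was -0.16 without both and -0.099 without 80 min replicate 3 alone. Among the separate and higher genes was the lipoxygenase Lalb_Chr04g0263291 at 15.7, 79.9 and 50.8 CPM and 217, 774 and 385 CPM (log2 fold change 3.23 with an SE of 0.72, adjusted p = 0.145 by edgeR).

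Auxin response genes had 12 separate and higher (9.84%) and 3 separate and lower (2.46%) of 122, beside 7.97% and 7.85% of all genes. Without both libraries edgeR called 8 higher (6.4%) and 11 lower (8.8%), beside 9.59% and 8.16% of all genes. The median log2 fold change was 0.14 over the 6 libraries, 0.15 without both and 0.12 to 0.25 without 1 library. A small auxin-up RNA (Lalb_Chr03g0025211), of a family that responds early to auxin, had 1.45, 1.27 and 1.41 CPM and 3.79, 4.7 and 4.0 CPM, and a member on the same chromosome with 3 genes between them (Lalb_Chr03g0025261) had 0.725, 1.06 and 0.808 CPM and 11.4, 8.4 and 1.82 CPM. Abscisic acid (7 genes), brassinosteroid (11) and strigolactone and karrikin lists (7) had 0, 0 and 0 members separate and higher and 0, 1 and 0 separate and lower.

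Most WRKY, receptor-like kinase and phenolic genes had lower values at 80 min. WRKY factors, regulators of defence and stress genes, lay below 0 in 74 of 101 cases (median log2 fold change -0.47), with 16 separate and lower (15.8%, beside 7.85% of all genes) and 3 separate and higher (2.97%). DESeq2 called 8 lower and 0 higher, beside 3.62% and 4.1% of all genes. Their summed level was 5313, 3601 and 3985 CPM at 20 min and 2221, 2238 and 3564 CPM at 80 min, without overlap, and 80 min replicate 3 was just below the lowest plant at 20 min. Without the same 2 libraries edgeR called 1 higher (0.98%) and 23 lower (22.5%), beside 9.59% and 8.16% of all genes. Lalb_Chr13g0303391 had 214, 140.2 and 57.7 CPM and 30.5, 28.6 and 33.7 CPM (log2 fold change -2.15, edgeR adjusted p = 0.146), and Lalb_Chr01g0005761 had 78.5, 96.4 and 87.8 CPM and 23, 23.5 and 57.8 CPM (log2 fold change -1.33, edgeR adjusted p = 0.158).

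Receptor-like kinases had 93 of 119 below 0 (median log2 fold change -0.52). There were 16 separate and lower (13.4%) and 6 separate and higher (5.04%), beside 7.85% and 7.97% of all genes. Their summed level was 2847, 2731 and 2573 CPM at 20 min and 1558, 1597 and 2568 CPM at 80 min, with 80 min replicate 3 just below the lowest plant at 20 min. Of 70 MAP kinase cascade genes 8 were separate and higher and 6 separate and lower (11.4% and 8.57%, beside 7.97% and 7.85% of all genes). Without both libraries edgeR called 2 higher (2.86%) and 10 lower (14.3%), beside 9.59% and 8.16% of all genes. Among the separate and lower genes, Lalb_Chr19g0137511 had 282, 128 and 317 CPM at 20 min and 64.8, 67.3 and 95.5 CPM at 80 min (log2 fold change -1.68 with an SE of 0.33, adjusted p = 0.13 by edgeR). Lalb_Chr03g0027051 had 101, 48.4 and 118 CPM and 33.6, 31.3 and 20 CPM. Calcium genes had 21 separate and higher and 27 separate and lower of 276 (7.61% and 9.78%). Phosphoinositide genes had 9 and 11 of 137 (6.57% and 8.03%), beside 7.97% and 7.85% of all genes. An NADPH oxidase (Lalb_Chr07g0183931), which makes extracellular superoxide, was tight in both groups, at 203, 177 and 217 CPM and 95.6, 91.7 and 97.8 CPM (log2 fold change -1.07 with an SE of 0.18, adjusted p = 0.13 by edgeR).

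Phenylpropanoid and flavonoid genes had 78 of 117 below 0 (median log2 fold change -0.43). There were 15 separate and lower (12.8%) and 5 separate and higher (4.27%), beside 7.85% and 7.97% of all genes. Phenylalanine ammonia-lyase (Lalb_Chr25g0289081), the entry enzyme, had 1940.5, 461 and 1805 CPM at 20 min and 315, 353 and 597 CPM at 80 min, and chalcone synthase (Lalb_Chr19g0139921), the entry to flavonoids, had 750.4, 92.7 and 900.5 CPM and 78.9, 142 and 159 CPM. In both, replicates 1 and 3 at 20 min were high and replicate 2 was inside the range at 80 min, so the groups overlapped. These are the plants that also had high fermentation transcripts. Glutathione transferases, which detoxify reactive compounds, had 10 of 39 separate and lower (25.6%, median log2 fold change -0.60) and 3 separate and higher (7.69%). Class III peroxidases had 9 of 74 separate and lower (12.2%, median -0.36) and 4 separate and higher (5.41%). Lipid genes had 18 separate and higher and 18 separate and lower of 179 (10.1% and 10.1%). Terpenoid and sterol genes had 4 and 1 of 59 (6.78% and 1.69%).

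Photosynthesis genes, which mark green tissue, had the lowest median of all lists, -0.87, with 84 of 113 below 0. There were 28 separate and lower (24.8%) and 7 separate and higher (6.19%), beside 7.85% and 7.97% of all genes. Without 20 min replicate 2 and 80 min replicate 3, edgeR called 3 higher (2.54%) and 22 lower (18.6%) of the photosynthesis genes, beside 9.59% and 8.16% of all genes. It called 3 higher (2.52%) and 29 lower (24.4%) of the receptor-like kinases, 6 higher (4.96%) and 24 lower (19.8%) of the phenolic genes and 3 higher (7.32%) and 11 lower (26.8%) of the glutathione transferases. The RuBisCO small subunit (Lalb_Chr13g0300171) overlapped, at 525, 33.4 and 426 CPM and 113, 90.7 and 31.8 CPM (log2 fold change -2.06, edgeR adjusted p = 0.269).

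Xyloglucan enzymes gave examples opposite in direction to the expansin. Of 78 expansins and xyloglucan enzymes, there were 5 separate and higher (6.41%) and 15 separate and lower (19.2%), beside 7.97% and 7.85% of all genes. The median log2 fold change was 0.0082 over the 6 libraries and 0.39 without both libraries, where edgeR called 7 higher (8.97%) and 9 lower (11.5%), beside 9.59% and 8.16% of all genes. The endotransglucosylase Lalb_Chr07g0180331, which cuts and rejoins wall xyloglucan, had 139, 49.7 and 129 CPM at 20 min and 20.2, 22.4 and 17 CPM at 80 min (log2 fold change -2.42 with an SE of 0.45, adjusted p = 0.13 by edgeR). Its direct neighbour Lalb_Chr07g0180341 had 232, 88 and 199.6 CPM and 44.7, 50.5 and 53.2 CPM, with the same order of the 20 min plants, and reads of such copies may have been shared between them. Lalb_Chr24g0397501 had 113, 113 and 145 CPM and 5.45, 4.17 and 38.5 CPM. Cellulose synthases had 4 of 27 separate and lower (14.8%) and 1 separate and higher (3.7%). Their median was -0.34 (-0.64 to 0.046 without 1 library). Without both libraries edgeR called 3 higher (10.7%) and 3 lower (10.7%).

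Other transcription factor families had shares above, near and below those of all genes, and in the smaller families a share rests on few genes. As shares separate and higher and separate and lower, beside 7.97% and 7.85% of all genes, C2H2 factors had 4.93% and 9.85% of 406, bZIP factors 5.26% and 12.8% of 133, AP2-ERF factors 4.73% and 10.1% of 169 and NAC factors 6.54% and 8.41% of 107. Their median log2 fold changes were -0.16, -0.25, -0.21 and -0.22. MYB factors had 7.93% and 6.4% of 328, bHLH factors 8.61% and 5.74% of 244 and homeobox factors 3.39% and 5.08% of 118. LOB factors had 12.5% and 8.33% of 48, AT-hook factors 10.9% and 6.52% of 46, GRAS factors 8.7% and 4.35% of 46 and B3 and ARF factors 4.17% and 5.56% of 72. MADS factors had 8.33% and 2.78% of 36, with 23 above 0, 13 below 0 and a median of 0.28. Without both libraries edgeR called 1 MADS factor higher (2.44%) and 1 lower (2.44%), beside 9.59% and 8.16% of all genes. A NAC factor named NAM (Lalb_Chr22g0359351) had 147, 64.3 and 107 CPM at 20 min and 12.6, 18.4 and 25.8 CPM at 80 min (log2 fold change -2.49 with an SE of 0.40, adjusted p = 0.13 by edgeR). A MYB-HB-like factor (Lalb_Chr18g0044761) had 177, 39.4 and 108 CPM and 16.6, 21.8 and 21.1 CPM, and its levels at 0 and 40 min, 19.5, 16.6 and 16 CPM and 19.4, 22.9 and 17.6 CPM, were close to those at 80 min. An AT-hook protein (Lalb_Chr20g0116811) was tight and low at 20 min, 35, 38.1 and 39.3 CPM, and stood at 83.6, 103 and 95.6 CPM at 80 min, below the 378, 358 and 162 CPM at 0 min.

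Marker lists of root cell types were counted beside the tissue label. Enough reads for a test were found in 4 of 4 root cap genes, 37 of 45 Casparian strip genes, 15 of 15 root hair genes, 27 of 29 phloem genes, 50 of 59 xylem and lignin genes and 27 of 31 root meristem genes. Photosynthesis genes were present too, with 113 of 145 tested. Over all genes 28980 of 33388 were tested, so passing the filter cannot check the tissue label. Casparian strip genes summed to 512, 520.4 and 477 CPM at 20 min and 427, 452 and 697 CPM at 80 min, root hair genes to 547, 579 and 509 CPM and 715, 712 and 371 CPM, and root cap genes to 67, 126 and 69.9 CPM and 146, 75.6 and 85.4 CPM. Root meristem genes summed to 184, 144 and 142 CPM and 72.2, 77.4 and 135 CPM, and xylem and lignin genes to 2297, 1701 and 2781 CPM and 1768, 1951 and 2576 CPM. In the first 3 of these lists and in xylem the groups overlapped, while the meristem sums did not and were higher at 20 min. The meristem list as a whole leaned neither way, with 13 of 27 genes above 0 and 14 below. Its median log2 fold change was -0.03 (-0.58 to 0.19 without 1 library). There were 1 separate and higher (3.7%) and 3 separate and lower (11.1%), beside 7.97% and 7.85% of all genes. Phloem genes summed to 385, 404 and 420.4 CPM and 336, 342 and 381 CPM, without overlap, and a phloem protein (Lalb_Chr15g0077511) had 30.9, 39.8 and 37.4 CPM and 11.8, 13.9 and 14.1 CPM (log2 fold change -1.45 with an SE of 0.24, adjusted p = 0.13 by edgeR). Clock and light genes follow the time of day. Of 16, 0 were separate and higher (0%) and 1 was separate and lower (6.25%), beside 7.97% and 7.85% of all genes. Their median was 0.0082. The 2 groups of clock and light sums, 372, 500.2 and 402 CPM at 20 min and 519.6, 388 and 730.4 CPM at 80 min, overlapped.

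**Figure D5:**
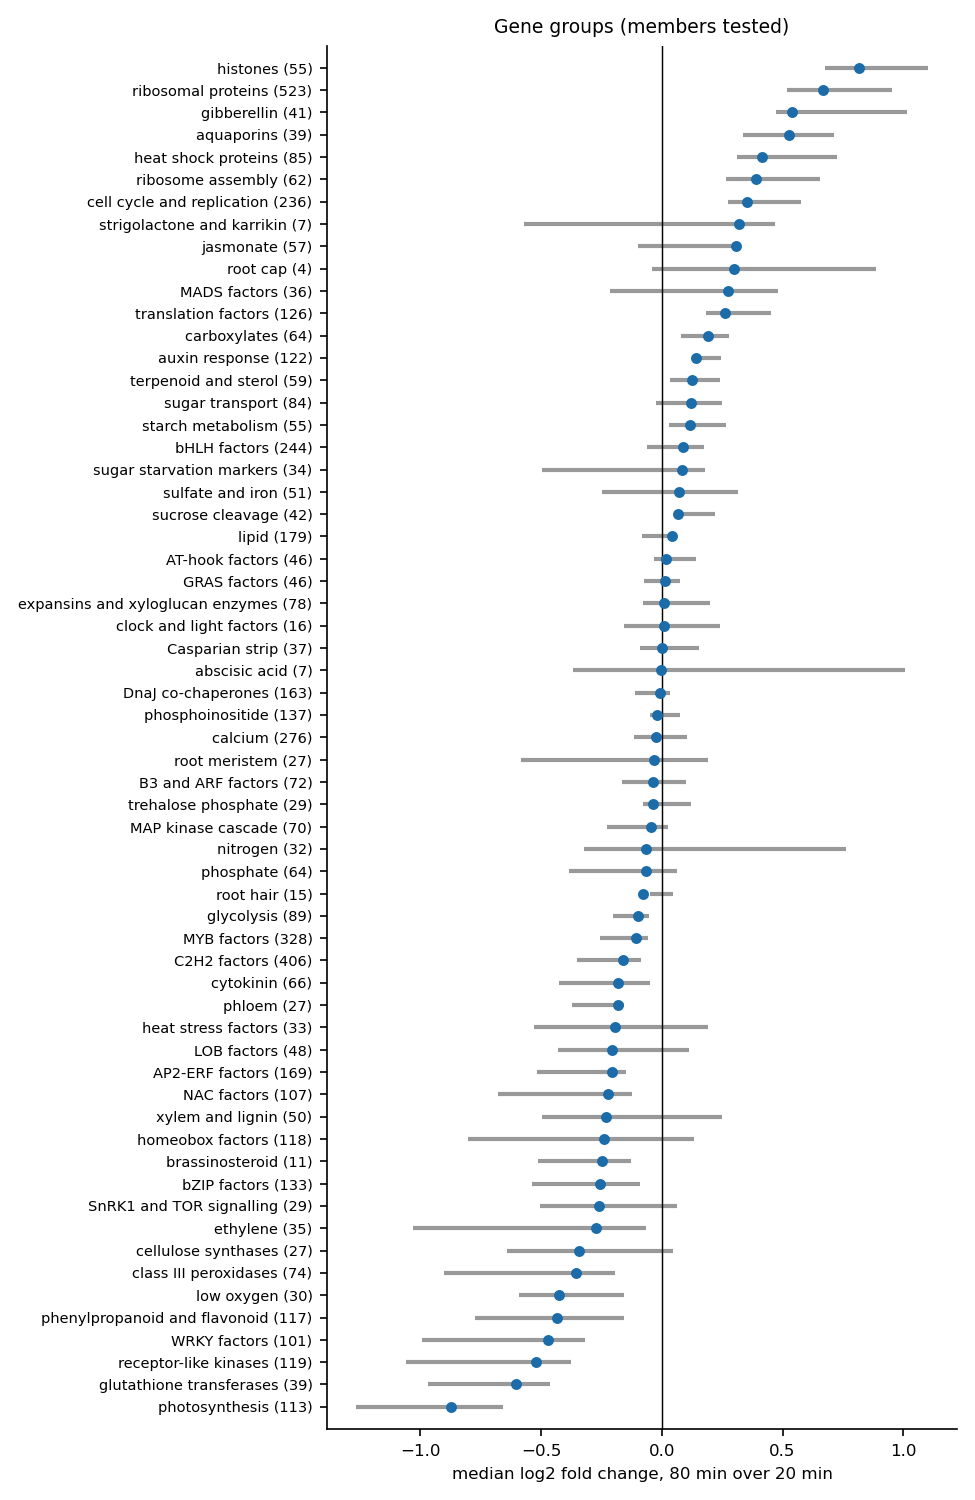
Median log2 fold change of 80 over 20 min for 61 gene groups (points, with the number of members tested in brackets), and the range of the median when each of the 6 libraries is left out in turn (bars). Histones and ribosomal proteins lie highest at 0.82 and 0.67, and photosynthesis genes lowest at -0.87, with bars that do not reach 0.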

How the data were processed

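RNA-seq of white lupin root tips was analysed, with 1 library per plant and 12 plants in 4 groups of 3, so replicates are separate plants. The authors deposited raw read counts and FPKM values per gene, per the file headers. The submitters' processing notes list bcl2fastq 2.20, FastQC, Trimmomatic 0.32, HISAT2, StringTie and DESeq2, with no role or order. Libraries were made with a stranded kit, per the labels' protocols, but no source used here gives the genome build, the annotation or whether counting used the strand. Reads of near-identical or antisense genes may therefore have been split between them or mixed.

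Counts were tested in R 4.3.3 with edgeR 4.0.16 (TMM scaling, its default filter on low counts by group, robust quasi-likelihood fit over 12 libraries with 8 residual degrees of freedom, common dispersion 0.449), with Benjamini-Hochberg adjustment over the 28980 genes tested and a threshold of 0.05. Of the 33388 genes, 4408 had too few reads. DESeq2 1.42.0 and limma 3.58.1 on log2(FPKM + 0.1) were alternatives. CPM values are counts scaled to a common library size. Total reads ranged from 35050877 to 105299704 in the 6 libraries. A fold against a group at 0 used a floor of 3 reads per library and covers counting error only.

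The contrast and the gene lists were chosen with earlier results of these data known. The words that match genes to the 61 lists were corrected after the protein names and values had been seen, to remove names matched by part of a word. Named genes were the 10 with the smallest p in each direction among genes with a named function, a mean of at least 2 CPM and groups that did not overlap, since too few genes passed the test, and the 3 members with the highest mean FPKM of 5 sugar and oxygen lists. Gene order came from NCBI's annotation of CNRS_Lalb_1.0, to which 33385 identifiers matched. Promoter sequences were not used here, so a planned count of motifs was left out.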

Additional observations from a re-analysis of the deposited data

How the results depend on the processing

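edgeR called 0 genes at adjusted p thresholds of 0.1 and 0.01, with RLE or upper quartile scaling, with no filter on low counts, with a filter at 1 CPM, without robust estimation and with the 6 libraries alone. With the 6 libraries alone 1473 genes were higher and 1278 lower at an unadjusted p below 0.05. DESeq2 called 2157 genes, 1146 higher and 1011 lower. Without 20 min replicate 2 and 80 min replicate 3 together, 5227 genes were called, 2823 higher and 2404 lower, with 5365 and 4543 at an unadjusted p below 0.05 and 10274 and 9851 whose groups did not overlap, where fewer plants make separation easier. Leaving out 1 library at a time, edgeR called 0 to 3541 genes (0 to 1985 higher and 0 to 1556 lower). The loss of 20 min replicate 2 gave 975 calls (335 higher and 640 lower), that of 80 min replicate 3 gave 3541, and each other loss gave 0 to 5. At an unadjusted p the ranges were 1446 to 4580 higher and 1399 to 4242 lower, and for groups that did not overlap 2280 to 7623 and 2306 to 6758. The cause was not tested.

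Deviations of plants with the same replicate number correlated at 0.0425, -0.131 and -0.223, and those with different numbers at -0.143 to 0.2. No pairing by number was seen in these values. With 1 plant apart in each group, they cannot show whether plants were handled in numbered sets. With the replicate number as a block, edgeR called 0 genes, with 2150 higher and 1996 lower at an unadjusted p below 0.05. Among the 35 named genes, 22 passed the threshold with DESeq2, 23 without both libraries, 23 without 20 min replicate 2, 21 without 80 min replicate 3, and 5 with limma on log2 FPKM. Signs turned in genes with small or scattered differences. The SWEET gene Lalb_Chr08g0240571 had a log2 fold change of -0.21 with the replicate block, -0.71 without both libraries, -0.13 with limma, and -1.14 to 0.42 without 1 library. The trehalose phosphate synthase Lalb_Chr05g0222101 had 0.0018 without both libraries, 0.17 with limma and -0.23 to 0.0726 without 1 library. Phosphatase Lalb_Chr12g0203741 had 0.43 with limma and -0.57 to 0.54, sucrose synthase Lalb_Chr07g0181391 had -3.18 to 0.16, transporter Lalb_Chr09g0327281 had -0.0365 to 0.47, and the hypoxia induced protein Lalb_Chr08g0231331 had 0.10 with limma. The cause was not tested. Of the 61 list medians, 31 changed sign without at least 1 of the 6 libraries, and 14 without both libraries. Among those that changed sign without 1 library were sugar transport (-0.024 to 0.25), sugar starvation (-0.50 to 0.18), SnRK1 and TOR (-0.51 to 0.062) and cellulose synthases. Medians of the histone, ribosomal and photosynthesis lists kept their sign without each library, at 0.68 to 1.10, 0.52 to 0.95 and -1.27 to -0.66.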

Other observations

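In 77 genes all 3 plants of one time had 0 reads while the other time was above the floor of 3 reads per library. An O-fucosyltransferase (Lalb_Chr16g0385681) had 0 reads at 20 min and 16.4, 12.4 and 18.4 CPM at 80 min, at least 288-fold higher. A pectinesterase (Lalb_Chr16g0387781), of the enzymes that remove methyl groups from wall pectin, had 10.8, 8.43 and 8.91 CPM at 20 min and 0 reads at 80 min, at least 268-fold lower. These genes were chosen after their values were seen, and the values are given with no explanation.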
